A study of Mus musculus with 2 samples.

Results

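The 10 genes described here encode enzymes of glycolysis and of lactate handling in cells of the mouse stria vascularis (SV). They are the hexokinases Hk1 and Hk2, the phosphofructokinase Pfkp and its regulator Pfkfb3, then Aldoa, Gapdh, Pgk1 and Pkm, and the lactate dehydrogenase subunits Ldha and Ldhb. They were chosen by name for their places in the pathway and matched by Ensembl identifier, and all 10 are among the 27040 genes listed in both deposited count matrices. Single cells came from 2 pooled libraries, each from 20 cochleae of 10 mice aged 1 to 3 months. In Tie2-GFP mice the Tek promoter, active in endothelium, drives GFP, and in NG2-DsRed mice the Cspg4 promoter, which pericytes (PCs) and some other cells use, drives DsRed. Cells were released with enzymes, sorted for fluorescence, and loaded as 1 batch for each mouse line on the 10x Chromium platform, with no treatment in either line. Each sort is thus 1 library, so no test over libraries was made. All intervals are 95% and cover counting error only.

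Glycolysis splits glucose into pyruvate in the cytosol and yields ATP without oxygen. Lactate dehydrogenase then converts pyruvate to lactate or lactate to pyruvate, and tetramers rich in the LDHA subunit are associated with lactate production, those rich in LDHB with lactate use. In the SV, marginal cells secrete potassium into the endolymph with ATP-driven pumps, intermediate cells are pigment cells whose potassium channels set the endocochlear potential, and both are supplied by capillaries lined by endothelial cells (ECs) and wrapped by PCs.

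Barcodes were placed in 4 classes by genes that take no part in glycolysis. A barcode was endothelial with a unique molecular identifier (UMI) of at least 4 of the 6 genes Pecam1, Cdh5, Cldn5, Flt1, Egfl7 and Ramp2. It was mural with at least 3 of the 4 genes Pdgfrb, Rgs5, Vtn and Notch3 and at most 1 of those 6. It was intermediate with all 3 of Dct, Tyr and Kcnj10, and marginal with both Kcne1 and Kcnq1. The Tie2-GFP library, labelled as endothelial cells, had 379 endothelial, 84 intermediate, 26 marginal and 4 mural barcodes of 633. The NG2-DsRed library, labelled as pericytes, had 97 mural, 57 endothelial and 23 intermediate barcodes of 201, and 0 marginal ones. In each library 3 barcodes met several rules and were left out, and 137 and 21 met none. The 4 mural barcodes of the Tie2-GFP library were too few for a comparison, which needed 10.

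The libraries held 5432289 and 1232599 UMIs and shared 0 barcodes. Markers outside the rules followed the classes in part. Tek was at 276 counts per 1000000 UMIs (CPM) in Tie2-GFP endothelial barcodes and at 0 in the intermediate and marginal ones, but other endothelial markers were less clean, with Esam at 469 CPM in mural and 583 in endothelial barcodes of NG2-DsRed and Emcn at 126 and 499. Cspg4 was at 656 CPM in mural and at 135 CPM in intermediate barcodes of the NG2-DsRed library. Of the pigment markers, Mlana was at 1102 and 898 CPM in the intermediate barcodes of the 2 libraries, but Tyrp1 was at 0 in both, and Sox10, which pigment cells and glia share, was present there at 291 CPM in Tie2-GFP. Of the marginal markers Dcdc2a was at 0, and Slc12a2 was at 7699 CPM in marginal but also at 3213 CPM in intermediate barcodes of Tie2-GFP. Macrophage markers had at most 1 UMI in any class. In NG2-DsRed, 41 of the 57 endothelial barcodes also had 2 or more mural genes, against 32 of 379 in Tie2-GFP. Mitochondrial UMIs had a median share of 1.82% in Tie2-GFP endothelial, 9.26% in intermediate and 17.9% in marginal barcodes. The study's mitochondrial limit of 5% and its limits on depth would leave 6 of 84 intermediate and 1 of 26 marginal barcodes of Tie2-GFP and 7 of 23 intermediate barcodes of NG2-DsRed, so all barcodes were used.

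Ldhb had the widest spread between classes of the 10 genes and its partner Ldha a much narrower spread, so the promoters of both are shown. Each holds the 250 bases before and 50 bases after a RefSeq start on GRCm38.p6, the sense strand of the gene. Capitals mark the motif ACGTG, the core of the hypoxia response element bound by HIF factors, or its reverse complement CACGT. Ldha lies on chromosome 7 at 46841475 to 46855627 (plus strand) and Ldhb on chromosome 6 at 142490249 to 142507957 (minus strand) in GENCODE M21.
Ldha, chr7:46845554-46845853: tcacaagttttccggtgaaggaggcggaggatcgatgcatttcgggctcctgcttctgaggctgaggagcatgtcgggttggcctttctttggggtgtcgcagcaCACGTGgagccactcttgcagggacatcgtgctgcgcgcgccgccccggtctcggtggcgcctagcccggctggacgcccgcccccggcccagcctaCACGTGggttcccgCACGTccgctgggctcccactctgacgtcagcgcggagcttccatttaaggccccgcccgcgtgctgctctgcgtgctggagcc
Ldhb, chr6:142507908-142508207: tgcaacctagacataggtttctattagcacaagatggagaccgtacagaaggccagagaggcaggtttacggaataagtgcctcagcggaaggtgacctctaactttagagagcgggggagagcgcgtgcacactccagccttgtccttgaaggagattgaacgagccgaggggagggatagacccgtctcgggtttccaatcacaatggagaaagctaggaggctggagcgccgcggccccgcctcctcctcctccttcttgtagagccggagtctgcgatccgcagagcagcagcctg
The Ldha promoter held 5 matches on both strands at 3 places, of which 2 are the palindrome CACGTG that counts once on each strand. The Ldhb promoter held 0 matches, as did the promoter of a second Ldha start. Of all 32851 RefSeq promoters of this length, 19.6% held the motif at least once and 0.183% held 5 or more matches. Across the 16 promoters of the 10 genes, 10 held it (62.5%), among them those of Hk2, Pfkfb3, Gapdh and Pgk1, whereas the Pfkp promoter held 0. The Aldoa promoters that held it overlap, so the same site may be counted more than once. By gene, 8 of the 10 held it in a promoter, where a gene with several promoters counted if any of them held it. The share of all genes by this rule is not given here, so the 19.6% of promoters is no background for the count by gene. A match is a run of letters and was not examined for binding.

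The 10 genes together took a larger share of UMIs in intermediate and marginal barcodes than in vascular ones. Their summed level was 1781 CPM (interval 1737 to 1826) in Tie2-GFP endothelial barcodes, 8132 (7976 to 8290) in intermediate and 7788 (7497 to 8089) in marginal ones. In NG2-DsRed it was 1447 CPM (1348 to 1552) in endothelial, 1896 (1750 to 2050) in mural and 6687 (6367 to 7019) in intermediate barcodes. In single Tie2-GFP barcodes the sum ran from 0 over a median of 1620 to 6086 CPM in endothelial ones and from 725 over 6986 to 16025 CPM in intermediate ones, so the ranges overlapped while the medians lay far apart. Median depth was 7431 UMIs in endothelial and 16077.5 in intermediate barcodes, so the gap in UMIs per barcode was wider than the gap in CPM.

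**Figure D1:**
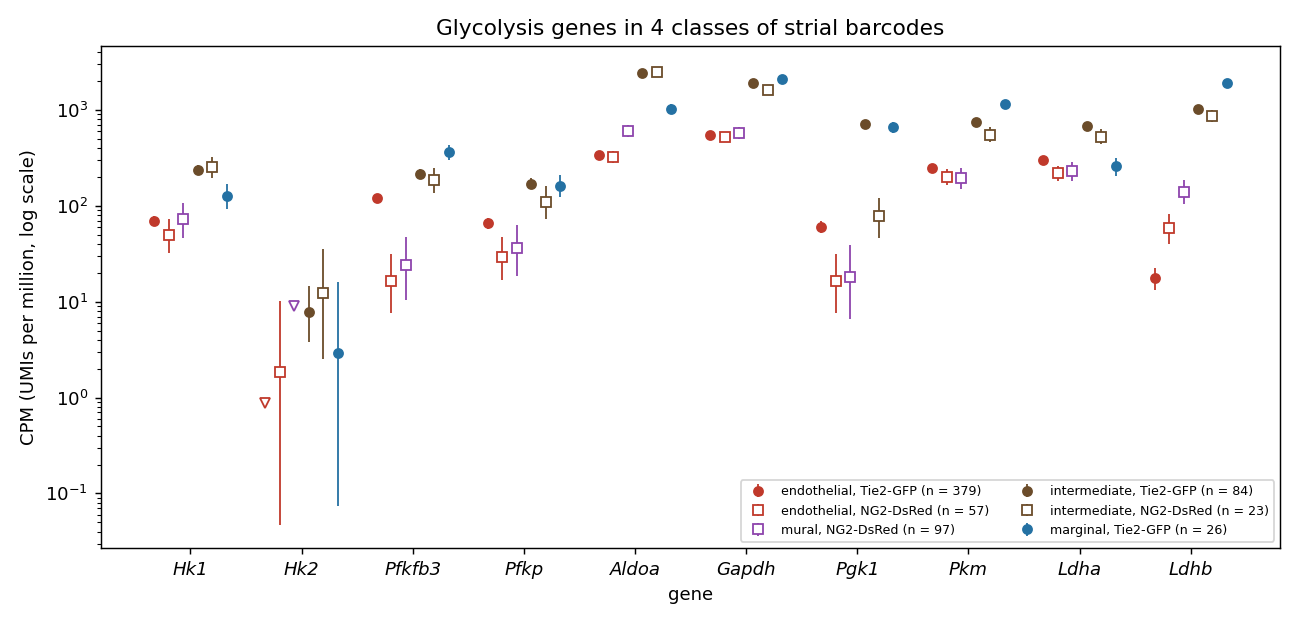
Level of each of the 10 genes in CPM of summed UMIs (log axis) by class, with filled circles for Tie2-GFP, open squares for NG2-DsRed, bars for 95% Poisson intervals and open triangles for the level that 3 UMIs would give where 0 were counted; n is the number of barcodes. The brown intermediate points lie above the red endothelial points for each gene, and the distance is widest for Ldhb, at 17.5 against 1013 CPM in Tie2-GFP.

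Within the Tie2-GFP library, a gene was compared when the 2 classes held at least 20 UMIs together, and was called at a ratio of 2-fold or more. Of the 9 genes that could be compared, 8 were 2-fold or more lower in endothelial than in intermediate barcodes and 0 were higher. Of all 10472 genes compared, 19.3% were lower and 29.3% higher by this rule. The median log2 ratio of the 9 genes was -1.77, beside 0.19 for all genes. In NG2-DsRed all 9 genes that could be compared were 2-fold or more lower in endothelial than in intermediate barcodes, where 16.7% of 5965 genes were lower and 27.9% higher, and their median log2 ratio was -2.23 beside 0.22. Hk2 had too few UMIs in both libraries.

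Hexokinase, the entry step that phosphorylates glucose, was represented almost entirely by Hk1, the broadly expressed form. Hk1 was at 69.6 CPM (61.0 to 79.0) in Tie2-GFP endothelial, 238 (212 to 266) in intermediate and 128 (92.8 to 171) in marginal barcodes. In NG2-DsRed it was at 49.5 CPM (32.6 to 72.1) in endothelial, 72.2 (46.3 to 107) in mural and 253 (194 to 324) in intermediate barcodes. Intermediate barcodes thus had the most Hk1 in both libraries, and the intervals of endothelial and mural barcodes overlapped. The log2 ratio of endothelial over intermediate was -1.77 (-2.02 to -1.52) in Tie2-GFP and -2.35 (-3.06 to -1.68) in NG2-DsRed. Hk2, the inducible form that is common in muscle and tumours, had 0 UMIs in the 379 Tie2-GFP endothelial barcodes, where 3 UMIs would be 0.874 CPM, and 10 UMIs in the 84 intermediate ones. With fewer than 20 UMIs in both classes together it was not compared. It took 3.21% (1.55 to 5.82) of hexokinase UMIs of Hk1 and Hk2 in intermediate barcodes and 0 of 239 in endothelial ones. In NG2-DsRed it had 1, 0 and 3 UMIs in endothelial, mural and intermediate barcodes, all at or under the floor of 3.

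Pfkfb3 makes fructose 2,6-bisphosphate, the strongest activator of phosphofructokinase, and is known to drive glycolysis in sprouting endothelium. It was the only gene of the 9 within 2-fold between Tie2-GFP endothelial and intermediate barcodes, at 122 CPM (110 to 134) against 216 (192 to 243), a log2 ratio of -0.83 (-1.05 to -0.60). Marginal barcodes had more than both, at 363 CPM (302 to 432). The NG2-DsRed values were 16.5 CPM (7.55 to 31.3) in endothelial, 24.1 (10.4 to 47.4) in mural and 188 (137 to 250) in intermediate barcodes. The 2 libraries thus held like levels in intermediate barcodes, with a log2 ratio of Tie2-GFP over NG2-DsRed of 0.20 (-0.25 to 0.69), but not in endothelial ones, where it was 2.88 (1.94 to 4.02). Endothelial Pfkfb3 was also uneven between barcodes of Tie2-GFP. It was found in 36.9% of them, the tenth with the most UMIs of it held 63.4% of its UMIs, and 1 barcode held 21 of the 418. Within Tie2-GFP, Pfkfb3 was at 131 CPM (119 to 145) in endothelial barcodes with at most 1 mural gene. It was at 69.9 (49.5 to 96.0) in the 32 with 2 or more, and such barcodes were more frequent in NG2-DsRed. There it was at 26.2 CPM (interval up to 76.5) in the 16 with at most 1 mural gene. In the other 41 it was at 13.9 CPM (interval up to 30.3). These levels rest on 3 and 6 UMIs, and both intervals lay below those of the like Tie2-GFP barcodes. The gap between the libraries was thus present in both groups of barcodes, and the part of mixed droplets in it was not tested. Whether the sort, the batch or the counting software goes with this gap cannot be told apart, since all 3 differed between the libraries. Of the 4 isozymes Pfkfb1 to Pfkfb4, Pfkfb3 took 92.9% (90.1 to 95.1) of UMIs in Tie2-GFP endothelial, 82.1% (77.6 to 86.0) in intermediate and 94.7% (89.4 to 97.8) in marginal barcodes. In NG2-DsRed the order of endothelial and intermediate barcodes was the opposite, at 56.2% (29.9 to 80.2) of 16 UMIs and 85.2% (72.9 to 93.4) of 54, with 72.7% (39.0 to 94.0) of 11 in mural ones, and these intervals overlapped. In Tie2-GFP, Pfkfb2 made up most of the rest in intermediate barcodes, with 59 UMIs against 7 in endothelial ones, a log2 ratio of -4.51 (-5.88 to -3.38). Pfkfb4 went the other way, with 21 UMIs in endothelial and 1 in intermediate barcodes, and Pfkfb1 had at most 4 UMIs.

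Phosphofructokinase commits sugar to glycolysis, and Pfkp is its platelet-type subunit. Pfkp was at 66.1 CPM (57.8 to 75.3) in Tie2-GFP endothelial, 171 (149 to 195) in intermediate and 163 (123 to 211) in marginal barcodes, and the last 2 of these intervals overlapped. Intermediate barcodes were above endothelial ones in NG2-DsRed too. The levels there were 29.4 CPM (16.8 to 47.7) in endothelial, 36.1 (18.7 to 63.1) in mural and 110 (72.6 to 160) in intermediate barcodes. Its partner Pfkl, the liver-type subunit, fell further, from 714 CPM (669 to 762) in intermediate to 87.6 (78.0 to 98.1) in endothelial barcodes of Tie2-GFP. The composition of the enzyme's transcripts therefore differed. Pfkp took 39.8% (35.7 to 43.9) of Pfkp, Pfkl and Pfkm UMIs in endothelial barcodes, 18.5% (16.3 to 20.9) in intermediate and 20.4% (15.8 to 25.6) in marginal ones. In NG2-DsRed the shares were 25.8% (15.5 to 38.5) in endothelial, 31.6% (17.5 to 48.7) in mural and 22.7% (15.5 to 31.3) in intermediate barcodes, and these intervals overlapped. The muscle-type subunit Pfkm was low, at 12.5 and 36.2 CPM in endothelial and intermediate barcodes of Tie2-GFP.

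Aldoa, which splits fructose 1,6-bisphosphate, was higher in intermediate than in all other classes. It was at 2443 CPM (2357 to 2530) in Tie2-GFP intermediate, 1033 (929 to 1146) in marginal and 343 (324 to 363) in endothelial barcodes. For NG2-DsRed the levels were 2486 CPM (2293 to 2692) in intermediate, 602 (521 to 691) in mural and 325 (279 to 376) in endothelial barcodes. The 2 libraries differed by little in the same class, with log2 ratios of -0.03 (-0.15 to 0.10) in intermediate and 0.08 (-0.15 to 0.32) in endothelial barcodes. In single barcodes of NG2-DsRed, Aldoa ran from 1212 over a median of 2170 to 4397 CPM in intermediate and from 0 over 303 to 1093 CPM in endothelial ones, so these ranges did not overlap. In Tie2-GFP they did, with 0 to 5453 CPM around a median of 2049 in intermediate and 0 to 2173 CPM around a median of 279 in endothelial barcodes. Aldoc, the aldolase of brain, had 25 UMIs in Tie2-GFP intermediate and 0 in endothelial barcodes, and Aldoa took 99.2% to 100% of aldolase UMIs in both classes.

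Gapdh, which oxidizes glyceraldehyde 3-phosphate and is often used as a reference gene, was not level across the classes. It was at 549 CPM (525 to 575) in Tie2-GFP endothelial, 1895 (1820 to 1972) in intermediate and 2101 (1951 to 2260) in marginal barcodes. In NG2-DsRed the values were 528 CPM (469 to 593) in endothelial, 578 (499 to 665) in mural and 1613 (1457 to 1780) in intermediate barcodes. The log2 ratio of endothelial over intermediate was -1.79 (-1.87 to -1.70) and -1.61 (-1.83 to -1.39) in the 2 libraries, and that of mural over endothelial was 0.13 (-0.14 to 0.40).

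Pgk1, the first ATP-yielding enzyme of the pathway, had the widest gap of the genes other than Ldhb in Tie2-GFP. It was at 60.3 CPM (52.3 to 69.1) in endothelial, 722 (676 to 770) in intermediate and 662 (579 to 753) in marginal barcodes, and the log2 ratio of endothelial over intermediate was -3.58 (-3.81 to -3.36). In NG2-DsRed it was low in all 3 classes, at 16.5 CPM (7.55 to 31.3) in endothelial, 18.1 (6.63 to 39.3) in mural and 77.6 (46.7 to 121) in intermediate barcodes. Intermediate barcodes of Tie2-GFP had 9.31-fold more Pgk1 than those of NG2-DsRed, a log2 ratio of 3.22 (2.57 to 3.96), whereas none of the 8 other genes compared there passed 2-fold. Of all 7148 genes compared, 11.3% were 2-fold or more higher in Tie2-GFP and 12.4% lower. The NG2-DsRed matrix lists the near-identical copy Pgk1-rs7, with 5 UMIs, and the Tie2-GFP matrix does not. How reads that match both copies were counted is not given in the sources used here, so the Pgk1 level in NG2-DsRed is uncertain and its part in the gap was not tested.

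Pkm, the pyruvate kinase that ends glycolysis and yields its second ATP, had its highest level in marginal barcodes. It was at 250 CPM (234 to 267) in Tie2-GFP endothelial, 751 (704 to 800) in intermediate and 1155 (1044 to 1274) in marginal barcodes. NG2-DsRed barcodes had 202 CPM (166 to 243) in endothelial, 196 (151 to 249) in mural and 555 (466 to 657) in intermediate barcodes. The log2 ratio of endothelial over intermediate was -1.59 (-1.72 to -1.45) and -1.46 (-1.84 to -1.09). Its splice forms, which differ in regulation, are not separated in these gene counts.

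**Figure D2:**
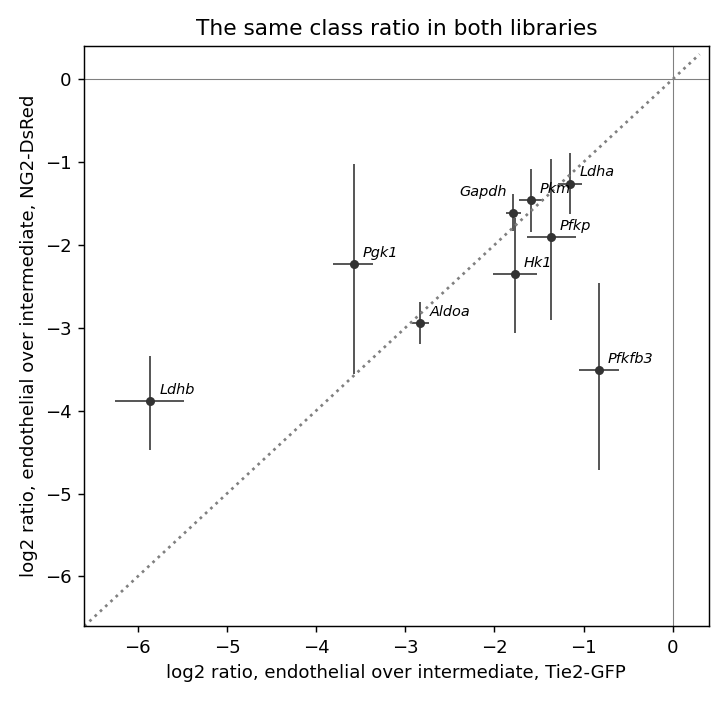
log2 ratio of endothelial over intermediate barcodes for 9 genes in Tie2-GFP (x axis) and NG2-DsRed (y axis), with 95% counting intervals and a dotted line of equal ratios; Hk2 is left out because it had too few UMIs. All 9 points lie below 0 on both axes, Aldoa, Gapdh, Pkm and Ldha lie near the line, and Pfkfb3 (-0.83 and -3.51), Ldhb (-5.86 and -3.88) and Pgk1 (-3.58 and -2.23) lie farthest from it.

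Ldha, the subunit associated with lactate production, changed least of the genes past 2-fold in that comparison. It was at 304 CPM (286 to 323) in Tie2-GFP endothelial, 676 (631 to 723) in intermediate and 258 (207 to 318) in marginal barcodes. In NG2-DsRed it was at 220 CPM (183 to 263) in endothelial, 229 (180 to 286) in mural and 527 (440 to 626) in intermediate barcodes. The log2 ratio of endothelial over intermediate was -1.15 (-1.29 to -1.02) in Tie2-GFP, and it was -0.88 when each barcode had equal weight. Endothelial and marginal barcodes did not differ beyond counting error, with a log2 ratio of 0.23 (-0.08 to 0.56). Ldha was the only one of the 9 genes with a ratio above 0 between these classes.

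Ldhb, the subunit associated with lactate use, was nearly restricted to intermediate and marginal barcodes among the classes compared in the Tie2-GFP library. It was at 17.5 CPM (13.3 to 22.5) in endothelial, 1013 (959 to 1070) in intermediate and 1924 (1780 to 2076) in marginal barcodes, so intermediate barcodes had 58.0-fold and marginal ones 110-fold more than endothelial ones. The NG2-DsRed values were 58.7 CPM (40.2 to 82.9) in endothelial, 141 (104 to 188) in mural and 865 (753 to 990) in intermediate barcodes. In Tie2-GFP the order of classes was the same by share of barcodes. Ldhb was found in 12.9% of Tie2-GFP endothelial, 92.9% of intermediate and 96.2% of marginal barcodes, and the expected shares at 2000 UMIs per barcode were 3.69%, 77.3% and 91.7%. In NG2-DsRed it was found in 29.8% (18.4 to 43.4) of endothelial, 28.9% (20.1 to 39.0) of mural and 100% of intermediate barcodes. Endothelial and mural shares were thus close, at median depths of 9045 and 3027 UMIs. The expected shares at 2000 UMIs were 10.9% in endothelial, 23.9% in mural and 74.4% in intermediate barcodes.

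The isozyme balance of lactate dehydrogenase, a ratio of 2 counts within a class, differed between all 3 classes of the Tie2-GFP library. Ldhb took 5.44% (4.18 to 6.95) of Ldha and Ldhb UMIs in endothelial, 60.0% (57.9 to 62.1) in intermediate and 88.2% (85.6 to 90.4) in marginal barcodes. In NG2-DsRed it took 21.1% (14.9 to 28.4) in endothelial, 38.2% (29.6 to 47.4) in mural and 62.2% (56.8 to 67.3) in intermediate barcodes. The intervals of the intermediate shares of the 2 libraries overlapped, and those of the endothelial shares did not. In endothelial barcodes, Ldhb was lower in Tie2-GFP than in NG2-DsRed, with a log2 ratio of -1.75 (-2.39 to -1.08), while Pfkfb3, Pgk1 and Pfkp were 2-fold or more higher. By that rule 12.3% of 9715 genes were higher and 13.4% lower. UMIs were counted at the 3′ end and not scaled by length, so these are shares of counted molecules and not of protein.

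**Figure D3:**
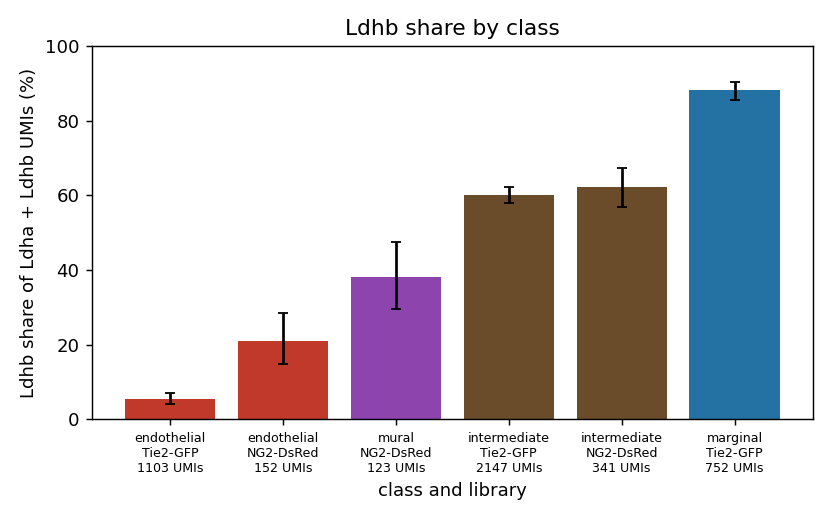
Share of Ldhb in the UMIs of Ldha and Ldhb (y axis, percent) for each class and library (x axis), with bars of 95% Clopper-Pearson intervals and the number of UMIs under each label. The share runs from 5.44% in endothelial barcodes of Tie2-GFP to 88.2% in marginal ones, with mural barcodes at 38.2%.

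Single barcodes gave the same picture. Of the 306 Tie2-GFP endothelial barcodes with a UMI of either gene, 292 had more Ldha than Ldhb and 5 had more Ldhb. Of 79 intermediate barcodes 59 had more Ldhb and 16 more Ldha, and of 25 marginal barcodes all 25 had more Ldhb. In NG2-DsRed 16 of 23 intermediate, 17 of 53 mural and 6 of 49 endothelial barcodes had more Ldhb. Intermediate barcodes were therefore mixed, and 73 of the 79 in Tie2-GFP held UMIs of both genes.

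**Figure D4:**
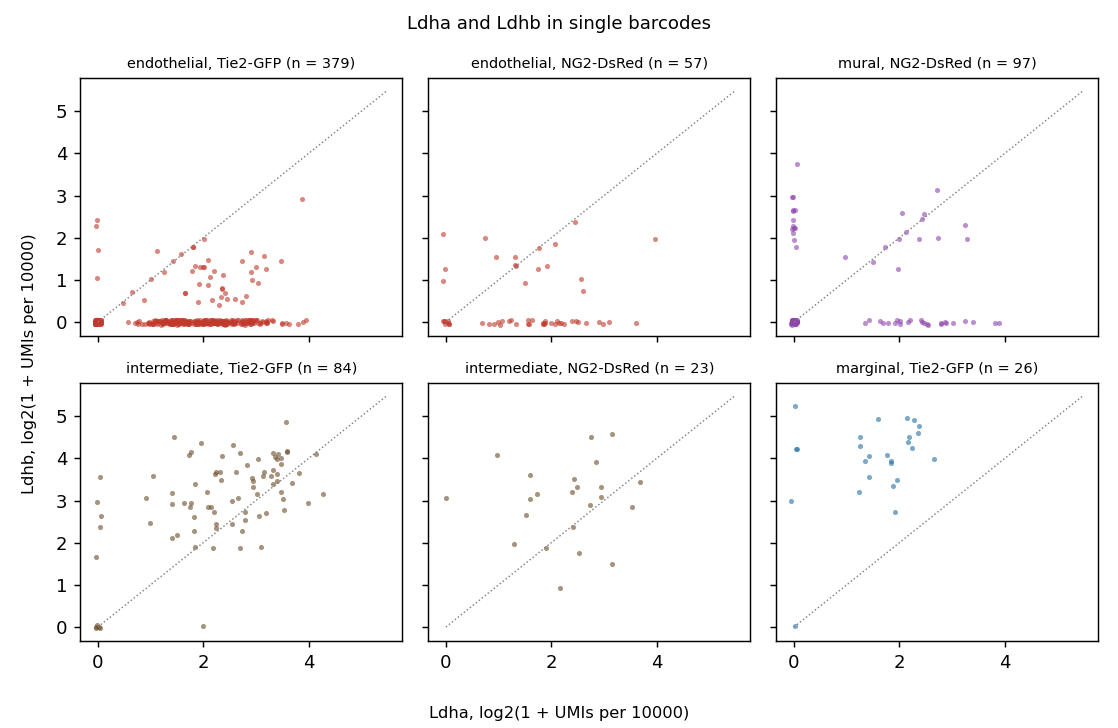
Ldha (x axis) and Ldhb (y axis) in single barcodes, as log2 of 1 plus UMIs per 10000, with a small random shift so that points do not hide each other, in 1 panel per class and library; the dotted line marks equal counts and n is the number of barcodes. Endothelial barcodes of Tie2-GFP lie along the x axis, all 25 marginal barcodes with a UMI lie above the line, and intermediate barcodes lie on both sides.

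Free RNA or mixed droplets can add UMIs of abundant genes, so endothelial Ldhb was set beside markers of other cells. In Tie2-GFP endothelial barcodes the pigment-cell genes Mlana, Met, Gpnmb and Slc45a2 were at 0.188% of their summed intermediate level, and Ldhb was at 1.72% of its own. Set against marginal barcodes, the class with the most Ldhb, the marker genes Esrrb, Slc12a2, Atp1b2 and Cldn7 were at 0.462% in endothelial barcodes and Ldhb at 0.908%, which is a narrower gap. By gene these marker shares ran from 0% for Esrrb to 0.522%. Slc12a2 was also at 3213 CPM in intermediate barcodes of Tie2-GFP, and Atp1b2 at 521 CPM in mural barcodes of NG2-DsRed. The summed marker share thus does not measure marginal RNA alone. In NG2-DsRed the pigment-cell genes Mlana, Met, Gpnmb and Slc45a2 were at 0.594% of their summed intermediate level in endothelial and 0.516% in mural barcodes. Ldhb was at 6.78% and 16.3% of its own. Without any barcode that held a UMI of these 4 pigment-cell genes, the Ldhb share was 5.09% (3.79 to 6.67) in Tie2-GFP endothelial barcodes. In NG2-DsRed mural barcodes it was 37.6% (28.8 to 47.0). The 4 genes are sparse in these classes, and 342 of 379 and 93 of 97 barcodes were kept. The shares were thus likely to stay near those of all barcodes, and a kept barcode can still hold free RNA. Endothelial Ldhb was also set beside mural genes. The 347 Tie2-GFP endothelial barcodes with at most 1 mural gene had a share of 3.84% (2.67 to 5.33), and the 32 with 2 or more had 11.9% (7.94 to 17.0), at a median depth of 7233 and 17451.5 UMIs. In NG2-DsRed the share was 11.1% (3.11 to 26.1) in the 16 endothelial barcodes with at most 1 mural gene and 24.1% (16.7 to 33.0) in the other 41, and these intervals overlapped. The part of free RNA, of mixed droplets and of depth in these shares was not tested.

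Mural and endothelial barcodes are the 2 vascular classes of NG2-DsRed, and 3 of the 10 genes had too few UMIs to be compared between them. Of the 7 genes that could be compared, Ldhb was 2-fold or more higher in mural barcodes, with a log2 ratio of 1.27 (0.59 to 1.96), and 0 were lower, where 16.2% of 6443 genes were higher and 14.4% lower, so this count too was near that of all genes. The median log2 ratio of the 7 genes was 0.30, beside 0.09 for all genes. Aldoa had a ratio of 0.89 (0.59 to 1.19), and the intervals of Hk1, Pfkp, Gapdh, Pkm and Ldha all held 0. Differences as large as the ends of these intervals are thus not excluded by the counts. Of the 57 endothelial barcodes, 41 also had 2 or more mural genes, and the part of mixed droplets in these ratios was not tested. Strict classes, with at most 1 rule gene of each other class, kept 16 endothelial, 97 mural and 22 of 23 intermediate barcodes. With these the log2 ratio of mural over endothelial rose to 2.02 for Ldhb and 1.15 for Aldoa. That of Ldhb in endothelial over intermediate barcodes went from -3.88 to -4.66. These ratios rest on 4 Ldhb and 31 Aldoa UMIs in the 16 endothelial barcodes, at 34.9 CPM (9.51 to 89.4) and 271 CPM (184 to 384). Both intervals held the levels of all 57 endothelial barcodes, 58.7 and 325 CPM, so the counts do not separate the strict from the main levels. Against intermediate barcodes of the same library, mural ones had all 9 comparable genes 2-fold or more lower, where 17.4% of 5038 genes were lower and 27.3% higher, with log2 ratios from -2.96 for Pfkfb3 to -1.20 for Ldha.

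Marginal barcodes, found in Tie2-GFP alone, had a summed level of the 10 genes whose interval overlapped that of intermediate ones. Of 9 genes, Aldoa and Ldha were 2-fold or more higher in intermediate barcodes, with log2 ratios of 1.24 (1.08 to 1.40) and 1.39 (1.07 to 1.72), and 0 were lower, where 20.6% of 7561 genes were higher and 13.3% lower, so the count was near that of all genes. Ldhb and Pkm were higher in marginal barcodes by less than 2-fold, with log2 ratios of intermediate over marginal of -0.93 (-1.06 to -0.79) and -0.62 (-0.79 to -0.45). CPM is scaled to all UMIs, and the median mitochondrial share was 9.26% in intermediate and 17.9% in marginal barcodes. The count of lower genes depends on this scaling, and that without mitochondrial UMIs is given below. The ratios of Pfkp and Pgk1 had intervals that held 0. Endothelial barcodes had 7 of 9 genes 2-fold or more lower than marginal ones, where 19.5% of 9967 genes were lower and 36.3% higher, and the exceptions were Hk1, at -0.88 (-1.34 to -0.38), and Ldha. The 26 marginal barcodes had between 2.88% and 75.4% mitochondrial UMIs, and 7 of them lay under 10%.

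Most other enzymes of the pathway that could be compared were also lower in endothelial barcodes. Of 13 further enzymes, 9 could be compared in Tie2-GFP, and 8 were 2-fold or more lower in endothelial than in intermediate barcodes, with a median log2 ratio of -2.88, beside 19.3% of all genes and their median of 0.19. Eno2, the enolase of neurons, had 2 UMIs in endothelial and 106 in intermediate barcodes. In NG2-DsRed 5 of 5 were lower, where 16.7% of all genes were. Between mural and endothelial barcodes 0 of 5 passed 2-fold, where 16.2% of all genes were higher and 14.4% lower.

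Genes of glucose and lactate transport did not all follow the enzymes. Of 5 compared in Tie2-GFP, 2 were 2-fold or more higher in endothelial than in intermediate barcodes and 2 lower. Of all genes, 29.3% were higher and 19.3% lower. Slc2a1, which encodes the glucose transporter GLUT1 of barrier endothelium, was at 1975 CPM (1928 to 2022) in Tie2-GFP endothelial, 79.5 (64.7 to 96.5) in intermediate and 14.5 (4.71 to 33.9) in marginal barcodes. For NG2-DsRed the levels were 1150 CPM (1062 to 1244) in endothelial, 33.1 (16.5 to 59.2) in mural and 32.7 (14.1 to 64.4) in intermediate barcodes. Endothelial barcodes thus had the most Slc2a1 and the lowest summed level of the 10 enzyme genes. Slc2a3 had 22 UMIs in Tie2-GFP endothelial and 0 in intermediate barcodes. Slc2a4, the insulin-responsive transporter GLUT4, was at 75.2 CPM (48.7 to 111) in mural and 12.8 (5.16 to 26.5) in endothelial barcodes, a log2 ratio of 2.55 (1.30 to 4.00). The lactate transporters Slc16a3 and Slc16a7 were higher in intermediate than in endothelial barcodes of Tie2-GFP, with 77 against 42 and 38 against 0 UMIs. Bsg, whose product is a chaperone of lactate transporters such as that of Slc16a3, was within 2-fold between those classes and lower in mural than in endothelial barcodes, with a log2 ratio of -3.02 (-3.30 to -2.75).

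**Figure D5:**
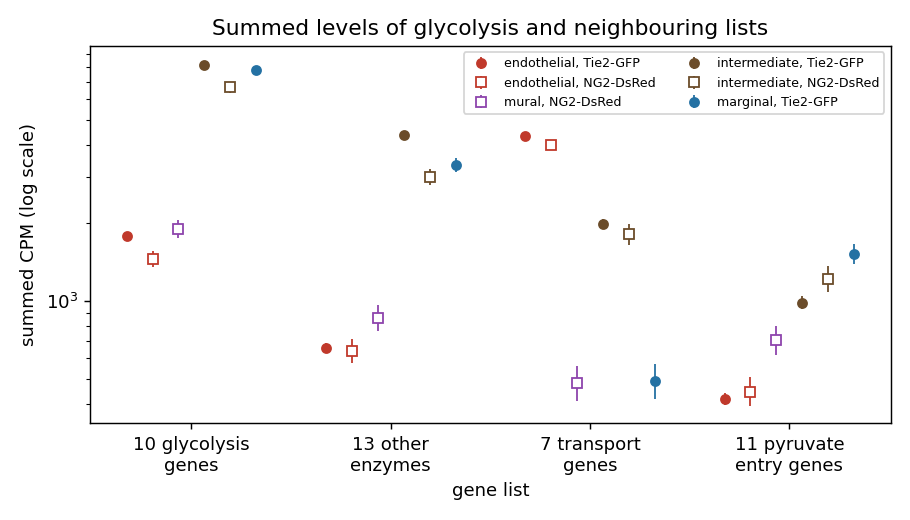
Summed CPM (log axis) of the 10 genes, 13 other glycolytic enzymes, 7 transport genes and 11 genes of pyruvate entry into mitochondria for each class (colour) and library (filled circles Tie2-GFP, open squares NG2-DsRed), with 95% Poisson intervals. Intermediate and marginal points lie above endothelial ones for the enzymes and pyruvate entry. Endothelial points lie highest for transport, at 4350 and 4007 CPM, of which the chaperone gene Bsg alone made up 2353 and 2829 CPM.

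Genes of pyruvate entry into mitochondria, that is the carrier, pyruvate dehydrogenase and its kinases and phosphatase, were lower in endothelial barcodes in part. Of 10 compared in Tie2-GFP, 5 were 2-fold or more lower than in intermediate barcodes and 1 was higher, where 19.3% of all genes were lower and 29.3% higher. The carrier subunit Mpc2 had a log2 ratio of -2.00 (-2.23 to -1.76) and the kinase Pdk2 one of -3.56 (-4.30 to -2.88), whereas the phosphatase Pdp1 had 2.49 (1.31 to 3.97). Between mural and endothelial barcodes 0 of 6 passed 2-fold, against the 16.2% of genes higher and 14.4% lower given above. Summed, the 11 genes were at 418 CPM (397 to 440) in Tie2-GFP endothelial, 984 (930 to 1040) in intermediate and 1521 (1393 to 1656) in marginal barcodes.

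Hypoxia-related genes outside glycolysis were split. Of 8 compared in Tie2-GFP, 3 were 2-fold or more higher in endothelial than in intermediate barcodes and 4 lower, where 29.3% of all genes were higher and 19.3% lower, so the share of higher genes was near that of all genes. Epas1, which encodes HIF-2α, had 2364 UMIs in endothelial and 14 in intermediate barcodes, a log2 ratio of 5.97 (5.22 to 6.84). Hif1a, named after its values were seen, was at 284 CPM (267 to 303) in endothelial and 1167 (1109 to 1228) in intermediate barcodes. Its direction was thus opposite to that of Epas1. The products of both genes are HIF factors, which bind the motif shown above. The part of either factor in the levels of the glycolysis genes was not tested. The vasodilator peptide gene Adm and the growth factor gene Vegfa were lower in endothelial barcodes, with log2 ratios of -3.44 (-3.73 to -3.17) and -3.19 (-3.62 to -2.78). Ndufa4l2, a HIF target, had 129 UMIs in endothelial and 0 in intermediate barcodes of Tie2-GFP. In NG2-DsRed it was at 1170 CPM (1057 to 1293) in mural and 378 (328 to 433) in endothelial barcodes. The same Tie2-GFP endothelial barcodes held 116, 2599, 414 and 96 UMIs of the mural genes Pdgfrb, Rgs5, Vtn and Notch3. The part of mixed droplets in the endothelial Ndufa4l2 level was not tested.

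Immediate-early and heat-shock genes, which rise during enzymatic release of cells, differed between the same classes. Their 11 genes summed to 27651 CPM in endothelial, 2763 in intermediate and 3189 in marginal barcodes of Tie2-GFP, and to 33466, 23761 and 6499 CPM in endothelial, mural and intermediate barcodes of NG2-DsRed. All 11 were 2-fold or more higher in endothelial than in intermediate barcodes of Tie2-GFP, where 29.3% of all genes were, led by Atf3 with a log2 ratio of 7.66 (6.94 to 8.50). Hemoglobin and other erythroid genes summed to 2695 CPM in Tie2-GFP endothelial barcodes. Of these 9254 UMIs 9213 lay in 2 barcodes, and without them Aldoa was at 344 and Ldhb at 17.7 CPM. The part of the response to dissociation in the levels of the 10 genes was not tested.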

How the data were processed

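For each library the authors deposited a matrix of UMI counts (genes by barcodes) that had not been normalized. By its header the Tie2-GFP matrix came from Cell Ranger 7.0.0, and that of NG2-DsRed from software version 3.0.0, and the submitters' processing notes name the build mm10 and bcl2fastq 2.20.0.422. Whether intronic reads were counted, and which annotation was used, is not given in the sources used here, and the gene lists differ (32285 and 27998 genes). Levels are therefore compared mainly within a library.

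UMIs were summed over the barcodes of a class and scaled to CPM of all UMIs, with exact Poisson intervals. Shares have Clopper-Pearson intervals, and log2 ratios have exact conditional binomial intervals. PCR duplicates are removed by the UMIs, and the intervals leave out variation between animals. Comparisons needed 10 barcodes in each class and 20 UMIs in both classes together, with a fold of 2. A count of 0 was set against a floor of 3 UMIs per class. Expected shares at 2000 UMIs were computed from each barcode's counts and leave out shallower barcodes, 17 of 379 Tie2-GFP endothelial, 2 of 84 intermediate and 19 of 97 mural ones. With 2 libraries an exact permutation test cannot give a p below 0.5, so none was run. No doublet caller was used. Barcodes that met several rules were left out, and strict classes and the removal of the deepest 10% of barcodes were alternatives.

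The genes, lists and class rules were chosen with earlier results of these data known. Beyond the 10 genes, those named are the isozyme partners and up to 2 genes with the highest and 2 with the lowest ratio in each list among those 2-fold or more apart, in endothelial over intermediate barcodes of Tie2-GFP and mural over endothelial barcodes of NG2-DsRed. Alternatives were the study's limits on barcodes, barcodes of several classes kept, strict classes (with no more than 1 rule gene of another class), removal of the deepest 10%, CPM without mitochondrial UMIs or over shared genes, equal weights, thinning, other folds and other minimum counts. Ratios and intervals were tested on simulated data drawn from the same counting model. These data leave out the spread between barcodes, so the test checks the calculation only. Software was pandas 2.3.3, scipy 1.17.1 and numpy 2.4.6 under Python 3.11.15, and figures were drawn with matplotlib 3.10.9. Gene positions are those of GENCODE M21, and promoters those of RefSeq, which had an entry for all 10 genes.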

Additional observations from a re-analysis of the deposited data

How the results depend on the processing

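Of the 293 recomputed log2 ratios of genes 2-fold or more apart, all 293 kept their direction, and of 436 in all 416 did. The alternatives reuse UMIs of the same barcodes, and the 293 were taken for their large ratios. A kept direction was therefore likely beforehand and is no independent support. The count lower in endothelial than in intermediate barcodes of Tie2-GFP ran from 6 to 9 of 9 or 10 compared genes over the alternatives. In NG2-DsRed it was 4 of 5 genes when thinned to 2000 UMIs, where fewer genes reached the minimum. Between intermediate and marginal barcodes, 0 genes were 3-fold higher, 1 was 2-fold lower without mitochondrial UMIs and 3 were 1.5-fold lower. Mural barcodes had 2 genes higher than endothelial ones under strict classes, 2 at 1.5-fold and 0 at 3-fold. The shares of all genes called under the alternatives of this section are not given here. The counts therefore describe only how the calls move with the setting. The Ldhb share under strict classes was 3.89% in Tie2-GFP and 11.1% in NG2-DsRed endothelial barcodes, and in Tie2-GFP intermediate barcodes it was 62.1% with equal weights and 62.1% when thinned. The cause of these shifts was not tested.

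The study's limits on barcodes left 6, 7 and 1 barcodes in the intermediate classes and the marginal class, too few for a value. A mitochondrial limit of 10%, chosen after seeing the data, kept the counts of 8 and 9 genes lower in endothelial than in intermediate barcodes, and left 7 marginal barcodes. Classes of a library come from the same pool and are paired by library. Each mouse line is 1 library with no replicate number, so the pairs were too few for a paired test. Genes with few UMIs, above all Hk2 and, in NG2-DsRed, Pgk1 and Pfkfb3, limit what can be told at this depth.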

Other observations

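The barcodes that met no class rule had levels of their own. In Tie2-GFP these 137 barcodes had a median of 1336 UMIs and a median mitochondrial share of 82.3%, with Hk2 at 33.6 CPM (16.8 to 60.2), Gapdh at 651 (567 to 745) and Ldhb at 370 (307 to 442). Ldhb took 68.4% (61.0 to 75.1) of their lactate dehydrogenase UMIs, and 74.5% (59.7 to 86.1) in the 21 such barcodes of NG2-DsRed. Hk2 thus had 11 UMIs in these barcodes, against 0 in the 379 endothelial ones.

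Among Tie2-GFP endothelial barcodes thinned to 2000 UMIs, Gapdh was the only one of the 10 genes found in enough barcodes, 66.0% in 1 random draw, to look for genes of like pattern. The highest Pearson correlation was with the ribosomal protein gene Rpl13, at 0.25 over 362 barcodes, and it was -0.09 over 57 barcodes of NG2-DsRed. All barcodes of a library share its preparation, and correlations of this size in sparse counts are no finding.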
